A study of Homo sapiens with 6 samples.

Results

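The MYC, MAX and MXD network is a family of transcription factors that share one DNA-binding partner. The genes described here are MYC, MAX, MXD1, MXD3, MXD4, MXI1, MNT, MLX and MLXIP, 9 genes named by their known place in the network. They were chosen with earlier results of these data known. A probe set is a group of short array probes designed against one transcript. Every non-control probe set that the platform annotation gives to exactly 1 of these genes was taken, which left 23 probe sets for 8 of the 9 genes, among 19775 genes measured in all. All probe sets of MXD4 were also annotated to a microRNA gene and are not analysed here.

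The cells were PC9 (PC-9 in the labels), an established line of EGFR-mutant non-small cell lung cancer. All 6 cultures carried a stably transfected GFP vector, so every group is this one engineered line. Parental cells (3 arrays) were kept in DMSO, the drug vehicle. Drug-tolerant persisters, DTPs (3 arrays), were what survived when erlotinib, which blocks the EGFR kinase, was given at 2 µM for 9 days. Per the labels the drug was added at 80% confluency, the DTPs were harvested on day 10 and the parental cells on day 3 at 100% confluency, whereas the study's methods name 9 days for both groups. On the labels' schedule drug, time in culture and cell density differ together and cannot be told apart. Total RNA was measured on Affymetrix U133 Plus 2.0 arrays, 1 array per culture, and the values are log2 probe set summaries.

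MYC binds DNA only after it has paired with MAX, and the MYC-MAX dimer activates genes whose control regions hold an E-box, most often the letters CACGTG. The MXD proteins (MXD1, MXI1, MXD3 and MXD4) and MNT pair with the same MAX, bind the same E-boxes and recruit SIN3 histone deacetylase complexes that silence the gene. MLX is a second shared partner, which pairs with some MXD proteins, with MNT and with the glucose-sensing factors MLXIP (MondoA) and MLXIPL (ChREBP). In epithelial cells MYC is a classical gene of growth factor signalling, and MXD1 is known for rising as cells stop dividing and differentiate.

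The array medians lay between 7.27 and 7.32, and the median of all probe set means was 7.29. Arrays correlated at 0.997 to 0.998 within groups and at 0.970 to 0.975 across them. All 6 epithelial markers looked at were bright in both groups. Their array means ran from 13.49 to 13.52 in parental cells and from 13.73 to 13.81 in DTPs. Among them KRT7 was called higher (1.96-fold), though in 1 of its 4 probe sets, with a mean log2 change of 0.38 over the 4. Of 4 lung adenocarcinoma markers none was called. SFTPC and NAPSA lay above the median probe set in both groups, SFTPB went from 7.59 to 7.13, and the lineage factor NKX2-1 was dim in both, at 5.56 and 5.71. Of 6 fibroblast markers, 1 was called higher (COL1A1, 6.36-fold) and 4 had both means below 7.29. COL1A1 was called in 3 of its 5 probe sets, with a mean log2 change of 1.51 over the 5. The mean over the 6 fibroblast markers ran from 6.79 to 6.89 in parental arrays and from 7.19 to 7.32 in DTP arrays. None of 5 blood cell markers was called, with array means from 6.76 to 6.82 in parental cells and from 6.68 to 6.79 in DTPs. Of 4 endothelial markers, 1 was called lower (PECAM1, 1.61-fold), with array means of the 4 from 7.81 to 7.90 and from 7.54 to 7.70. PECAM1 went from 10.09 to 9.40. It was called in 4 of its 5 probe sets, with a mean log2 change of -1.29 over the 5. The difference between 3′ and 5′ control probe sets of ACTB, a measure of RNA integrity, was 0.14 to 0.19 in parental arrays and 0.03 to 0.08 in DTP arrays (exact two-sided permutation p = 0.1, the smallest that 3 against 3 arrays allow). For GAPDH the same difference was -0.169 to -0.138 in parental arrays and -0.178 to -0.173 in DTP arrays (p = 0.1, same permutation test). The part of these in the results below was not tested.

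In DTPs the transcripts of MYC and of 2 genes for its repressing rivals, MXD1 and MXI1, were lower, while those of MAX and MLXIP were higher. The largest change was in MXD1, 6.26-fold lower, followed by MYC, 2.63-fold lower. A gene was called when limma's adjusted p was under 0.05 and the fold over 1.5. By this rule 2 of the 8 genes were called higher, against 8.08% of all genes, and 3 were called lower, against 6.13%. In either direction 14.2% of all genes were called. At the adjusted p alone 7 of the 8 passed, against 44.5% of all genes, and the 6 values did not overlap between groups for 8 of 8, against 53.7%. The median log2 fold change of the members was -0.27 and that of all genes -0.05. Because the members were chosen with earlier results of these data known, these comparisons with all genes are descriptions and not a test. These are bulk RNA values, so a shift in which cells were present and a different amount of the RNA in each cell cannot be told apart.

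**Figure D1:**
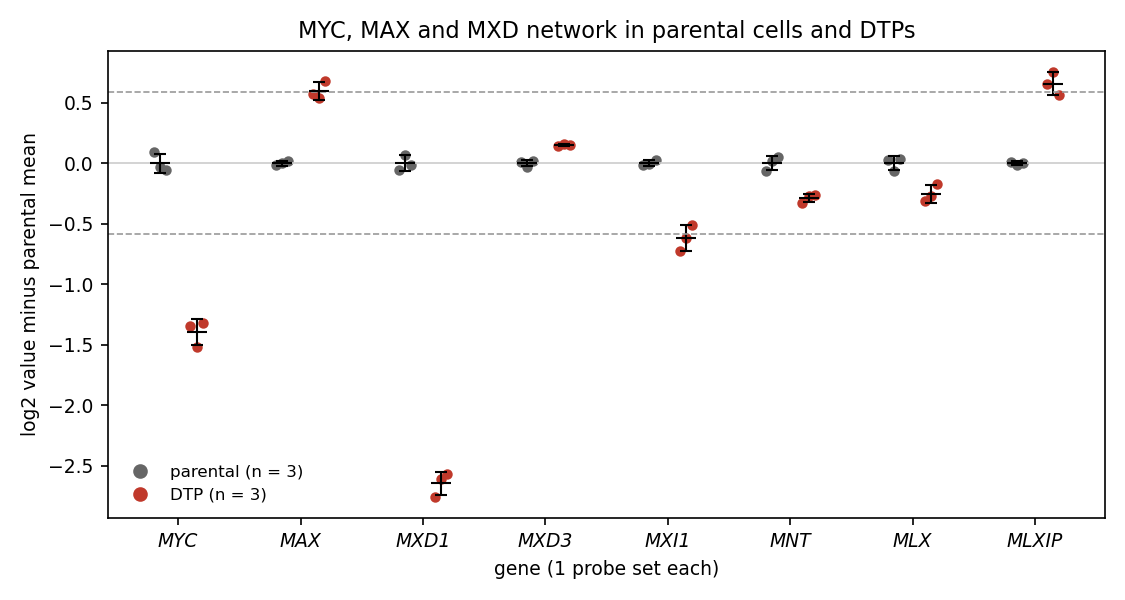
Log2 value minus the gene's parental mean (y axis) for the 8 measured network genes in each of 3 parental and 3 DTP arrays. There is 1 point per array and 1 probe set per gene, with the group mean and SD drawn beside the points. MYC and MXD1 stand far apart between the groups, whereas MXD3 differs by only 0.15.

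MYC encodes the activating subunit of the network. Its probe set, 202431_s_at, read 13.16, 13.04 and 13.01 in the 3 parental arrays and 11.72, 11.55 and 11.74 in the 3 DTP arrays. Every DTP array was more than a log2 unit below every parental array, although the transcript stayed far above the median probe set in all 6. The mean went from 13.07 ± 0.08 (SD, n = 3) to 11.67 ± 0.11 (SD, n = 3), a log2 change of -1.40 ± 0.08 (SE), with an adjusted p of 1.38e-08 in limma. Only 1.02% of all genes fell further. The value for MYC rests on 1 probe set, the one that the annotation gives to it alone.

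MAX, the obligate partner of MYC and of the MXD proteins, moved the other way. Its brightest probe set, 209332_s_at, read 10.91, 10.93 and 10.95 in parental cells and 11.50, 11.47 and 11.61 in DTPs. The groups did not overlap, and the rise of 0.60 ± 0.07 (SE) on the log2 scale, or 1.51-fold, lay just above the fold threshold (adjusted p = 1.07e-05, limma). Without DTP replicate 3 the change was 0.56, which is under that threshold. All 5 MAX probe sets had positive log2 changes, from 0.15 to 0.60, but 209332_s_at alone was called. The 2 smallest changes, both 0.15, were in 208403_x_at and in the dim 214108_at, whose groups overlapped. The suffix _x_at marks a probe set in which some probes may also bind other transcripts.

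Among the repressors, MXD1 had the largest change. It encodes a repressor, also called MAD1, that competes with MYC for MAX. The probe set 226275_at read 11.02, 11.14 and 11.06 in parental cells and 8.32, 8.46 and 8.50 in DTPs. The change was -2.65 ± 0.07 (SE; adjusted p = 3.42e-11, limma), and 0.202% of all genes fell further. A second MXD1 probe set, 228846_at, read 11.07, 11.28 and 11.20 in parental cells and 7.80, 7.71 and 7.72 in DTPs, 10.8-fold lower (adjusted p = 7.12e-11 over all probe sets). The dimmest of the 3, 206877_at, read 8.75, 9.06 and 8.87 in parental cells and 7.01, 6.82 and 6.89 in DTPs, 3.96-fold lower. All 3 probe sets separated the groups completely and were called lower. The DTP mean of 206877_at, 6.91, lay below the median probe set, where a fold understates the change because arrays give dim transcripts a floor of background signal.

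MXI1, also called MXD2, encodes a second repressor of the MXD class. Its probe set 202364_at read 11.49, 11.51 and 11.54 in parental cells and 10.79, 10.89 and 11.00 in DTPs. The parental values were tight and every DTP array lay below them, by -0.62 ± 0.07 on the log2 scale (SE), or 1.54-fold (adjusted p = 1.46e-05, limma), with 5.51% of all genes falling further. Without DTP replicate 1 the change was -0.57, and after centring each array on ribosomal protein genes or on the spiked-in control transcripts it was -0.49 or -0.47, all below the fold threshold.

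MXD3, a repressor usually expressed in dividing cells, read 8.87, 8.83 and 8.88 in parental cells and 9.00, 9.01 and 9.00 in DTPs. The ranges did not touch, but the difference was 0.15 ± 0.06 (SE), and it missed the adjusted p threshold (0.0788, limma). MNT, the broadly expressed repressor of the network, read 10.20, 10.28 and 10.31 in parental cells and 9.93, 9.99 and 10.00 in DTPs. Its change of -0.29 ± 0.07 (SE) passed the adjusted p (0.00327) and not the fold, at 1.22-fold lower. The other MNT probe set, 236749_at, changed by -0.18 (adjusted p = 0.0917 over all probe sets).

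In the arm of the network built on MLX, the partner and its activator had changes of opposite sign. MLX read 10.00, 9.90 and 10.00 in parental cells and 9.65, 9.69 and 9.79 in DTPs, a change of -0.25 ± 0.07 (SE; adjusted p = 0.00948, limma) or 1.19-fold lower, which was not called. Of the 6 MLX probe sets, the 3 bright ones changed by -0.25 to -0.39 with no overlap between groups, whereas the 3 others changed by -0.16, 0.07 and 0.08 and overlapped. MLXIP, which moves to the nucleus when glucose phosphates accumulate, read 10.90, 10.87 and 10.89 in parental cells and 11.55, 11.64 and 11.45 in DTPs. All 3 DTP arrays lay above the parental arrays, by 0.66 ± 0.07 (SE), or 1.58-fold (adjusted p = 6.95e-06, limma), and 6.79% of all genes rose further. Of the 4 MLXIP probe sets, 3 were called higher, at 0.66, 0.70 and 0.71, and the dim 1554886_a_at changed by 0.04 with overlapping groups. Averaging all probe sets of a gene took MLXIP to 0.53 and MAX to 0.34, under the fold threshold.

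Over the 23 probe sets, 4 were called higher, against 7.56% of all probe sets, and 5 lower, against 4.93%. In either direction 12.5% of all probe sets were called. The called probe sets were 1 of MYC, 3 of MXD1, 1 of MXI1, 1 of MAX and 3 of MLXIP. The median log2 change over the 23 was 0.04, against -0.05 over all probe sets, with 5 of the 23 from MAX and 6 from MLX.

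**Figure D2:**
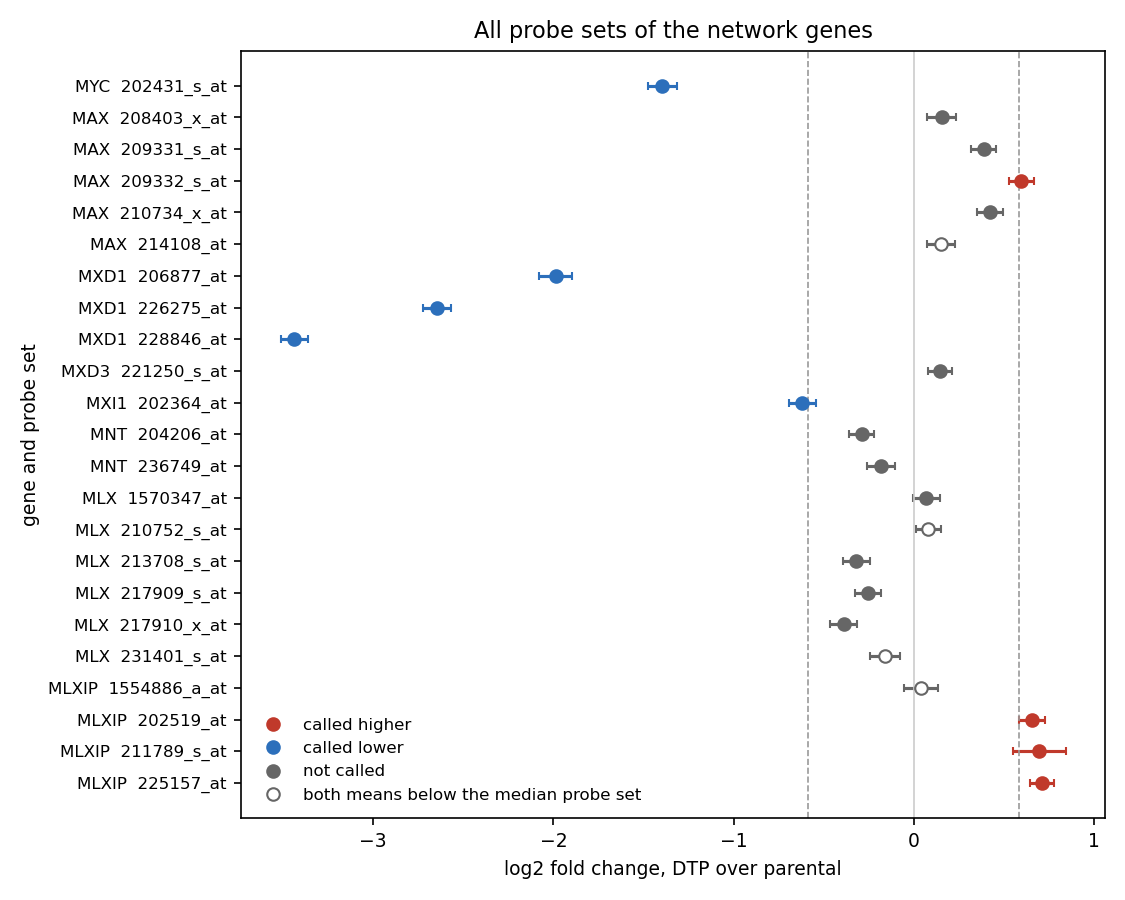
Log2 fold change of DTP over parental cells (x axis) for each of the 23 probe sets, grouped by gene (y axis), with error bars showing the SE from limma. Dashed lines mark a 1.5-fold change and open circles mark probe sets whose means were both below the median probe set. The 3 MXD1 probe sets and that of MYC sit farthest to the left.

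The 4 genes MYC, MXD1, MXI1 and MAX gave 6 pairs, in which the change of one was set against the change of the other within the same arrays. MXD1 fell more than MYC by 1.25 log2 units, or 2.38-fold, and more than MXI1 by 4.07-fold. MYC fell more than MXI1 by 1.71-fold. Against MAX, the relative change was 3.98-fold lower for MYC, 9.46-fold lower for MXD1 and 2.32-fold lower for MXI1. Each gene was taken by 1 probe set. Over all their probe sets MXD1 changed by -1.99 to -3.44 and MAX by 0.15 to 0.60, so these values depend on that choice. For each of the 6 pairs the per-array differences did not overlap between groups, and the exact two-sided permutation p was 0.1. This is the smallest possible with 3 against 3 arrays, so no pair could pass a threshold of 0.05. All 4 genes were called members, whose own values already separated the groups. Against MAX, which moved the other way, the lack of overlap followed from this. The pairs are descriptions and add no support to the calls. The folds given are ratios of changes and not of transcript numbers, because probe sets of different genes cannot be compared in level.

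The other genes of the network gave small values. MYCN, the neuronal paralogue of MYC, read 6.85 and 6.87 on average, below the median probe set in both groups, and its change of 0.02 had an adjusted p of 0.862. MYCL, the third paralogue, changed by -0.06 (adjusted p = 0.474), and MGA, a large MAX-binding repressor, by 0.06 (adjusted p = 0.5). MLXIPL, the liver-type relative of MLXIP, changed by -0.35 (adjusted p = 0.00402), with parental values of 7.58, 7.61 and 7.55 and DTP values of 7.41, 7.18 and 7.11. None of these 4 genes was called, and their median was -0.02.

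Of 16 cofactors of MYC or MXD proteins, 14 were measured, and 12 were not called, with a list median of -0.13. Of all genes 14.2% were called in either direction. RUVBL1, an ATPase of chromatin remodelling complexes that MYC recruits, was 1.65-fold lower, from 11.29 to 10.57 (adjusted p = 6.47e-06). SIN3B, one of the scaffolds through which MXD proteins and MNT recruit deacetylases, was 1.58-fold higher, from 9.64 to 10.29 (adjusted p = 1.01e-05), and 2 of its 3 probe sets were called. No other cofactor was called. After spike-in centring 2 cofactors were called higher and 0 lower, and with the mean of all probe sets 0 were called higher.

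Of 11 measured genes for turnover of the MYC protein, 2 were called higher and 2 lower, with a list median of -0.15. Of all genes 8.08% were called higher and 6.13% lower. At the adjusted p alone 2 of the 11 were higher and 5 lower, and 44.5% of all genes passed. FBXO32, a ubiquitin ligase subunit best known from muscle atrophy, read 9.58, 9.50 and 9.62 in parental cells and 10.99, 10.91 and 11.16 in DTPs. That is 2.74-fold higher (adjusted p = 1.24e-08), and 6 of its 7 probe sets were called. SKP2, a ligase subunit that ubiquitinates MYC and the inhibitor p27, was 1.98-fold higher, and all 3 of its probe sets were called. AURKA, a mitotic kinase that can shield MYC proteins from FBXW7, was 1.77-fold lower, and CIP2A, which inhibits the phosphatase PP2A and so stabilises MYC, 1.72-fold lower. AURKA was called in 2 of its 3 probe sets, with a mean change of -0.55, and CIP2A in 1 of 2. With the mean of all probe sets 1 gene of this list was called lower in place of 2. FBXW7 itself, the classical ligase of MYC, changed by 0.03 (adjusted p = 0.8). Of 8 proteins that bind MYC mRNA, 2 were called lower, against 6.13% of all genes, and 6 were not called. The 2 called were IGF2BP2, an mRNA-stabilising protein, 2.11-fold lower with both of its probe sets called, and ZFP36, which speeds decay of AU-rich mRNAs, 1.54-fold lower. Their relatives went the other way, under the fold threshold. IGF2BP1 changed by 0.55, IGF2BP3 by 0.22 and ZFP36L1 by 0.55 (adjusted p = 1.88e-05, 0.015 and 5.16e-05, limma). At the adjusted p alone 3 of the 8 were higher and 4 lower. Among these proteins 1 was called lower and 1 higher without DTP replicate 3, and 1 lower and 2 higher after either centring.

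Among 8 other basic helix-loop-helix factors that bind E-boxes, 2 were called higher and none lower, against 8.08% and 6.13% of all genes. MITF, the melanocyte and lysosomal factor, rose 2.15-fold, from 8.57, 8.50 and 8.41 in parental cells to 9.60, 9.48 and 9.71 in DTPs. Of the 3 MITF probe sets 2 were called, with a mean change of 0.79 over the 3. BHLHE40, a repressor that responds to stress and the circadian clock, rose 1.80-fold, and both of its probe sets were called. Without DTP replicate 3, 1 factor of this list was also called lower.

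Genes widely described as MYC targets were followed in 4 lists chosen by function, 72 of 82 genes of which were measured. In all, 11 were called lower and 1 higher, while 60 were not called. Over all genes 6.13% were called lower and 8.08% higher. Their median log2 change was -0.23, against -0.05 for all genes, and 49 values were negative and 23 positive. At the adjusted p alone 36 were lower and 11 higher, against 4754 lower and 4043 higher of all 19775 genes.

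The nucleolar and ribosome assembly genes had the lowest median of the 4 lists, -0.42. Of 22 measured, 6 were called lower and none higher, and 19 of 22 values were negative. LYAR, a nucleolar growth regulator, was 1.87-fold lower, and WDR43, a subunit of the small-subunit processome, 1.72-fold lower. FBL, the methyltransferase of box C/D particles, read 12.92, 12.88 and 12.94 in parental cells and 12.07, 12.06 and 12.30 in DTPs, 1.71-fold lower (adjusted p = 3.98e-06). NOLC1, a nucleolar phosphoprotein, was 1.61-fold lower, and all 3 of its probe sets were called. After centring on ribosomal protein genes or on spiked-in controls 3 of these genes were called in place of 6, since both shift all genes upwards, to a median of 0.08 or 0.10. Of the 27 ribosomal protein genes used, 26 had negative log2 changes, with a median of -0.09, and 6 were lower at the adjusted p. Centring on them therefore adds their own mean fall to the change of every gene.

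The metabolic targets were mixed, with a median of 0.01, 9 negative and 9 positive values and 3 of 18 called lower. HK2, the hexokinase that traps glucose, read 11.30, 11.33 and 11.33 in parental cells and 9.35, 9.41 and 9.48 in DTPs, 3.74-fold lower (adjusted p = 2.34e-10), though 1 of its 3 probe sets carried the call and their mean change was -0.97. SHMT2, the mitochondrial serine hydroxymethyltransferase, was 2.66-fold lower with all 3 of its probe sets called, and IMPDH2, the rate-limiting enzyme of guanine nucleotide synthesis, 1.71-fold lower. ODC1, an often cited MYC target and the first enzyme of polyamine synthesis, changed by 0.25 and was not called, and LDHA, the enzyme that makes lactate, changed by 0.03 (adjusted p = 0.735). ODC1, LDHA, FBXW7, IGF2BP1, IGF2BP3, ZFP36L1 and the TXNIP and ARRDC2 values given below were picked out after their values were seen.

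Of 15 translation and chaperone targets, 14 were not called. HSPE1, a mitochondrial co-chaperone, was 1.64-fold higher, against the direction of the list median of -0.26. In this list 1 gene was called lower without parental replicate 1 and 2 without DTP replicate 3. Of 17 cell cycle targets, 2 were called lower, with a list median of -0.11. TERT, the catalytic subunit of telomerase, was 3.24-fold lower, from 9.74, 9.60 and 9.59 in parental cells to 7.999, 7.85 and 7.99 in DTPs, and both of its probe sets were called. PLK1, a mitotic kinase, was 1.68-fold lower, and its DTP values of 9.37, 9.39 and 9.87 spread more widely than its parental values of 10.39, 10.20 and 10.29. In this list 1 gene was called higher without parental replicate 1 or DTP replicate 2, and 2 were called higher after either centring.

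The 11 genes known to be repressed by MYC together with the factor MIZ1 did not share a direction. NDRG1, a stress and differentiation gene, fell 3.91-fold, from 11.89, 12.11 and 12.19 to 9.82, 10.21 and 10.25. CEBPA, a differentiation factor, fell 1.60-fold. CLU, an extracellular chaperone, rose 2.06-fold, with 3 of its 4 probe sets called and a mean change of 0.66 over the 4. CDKN2B, which encodes the cell cycle inhibitor p15, rose 1.92-fold, with 1 of its 2 probe sets called. The list median was -0.03 and 7 of the 11 were not called. After either centring 1 gene of this list was called lower in place of 2.

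The 4 genes listed as targets of MLXIP and MLX were also split, with 3 lower and 1 higher at the adjusted p. TXNIP, the arrestin that limits glucose uptake and the best known target of MLXIP, changed by -0.46 ± 0.08 (SE; adjusted p = 0.00062), under the fold threshold. Its relatives ARRDC4 and ARRDC3 were 1.72-fold lower and 2.44-fold higher, and ARRDC2 changed by -0.39. MLXIP itself was higher, as given above.

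**Figure D3:**
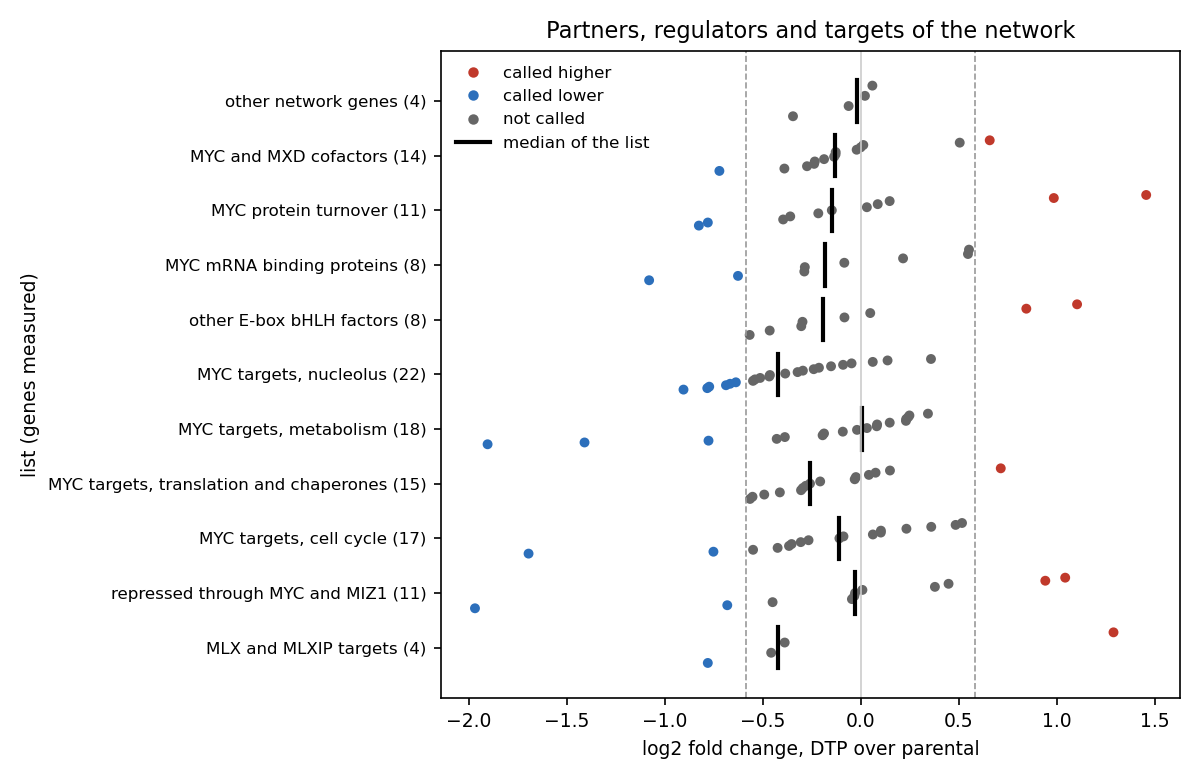
Log2 fold change of DTP over parental cells (x axis) for each measured gene of the 11 related lists (y axis), 1 point per gene. A black bar marks each list's median and dashed lines mark a 1.5-fold change. The nucleolar targets lie mostly left of 0, whereas the metabolic targets centre near 0.01.

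The letters CACGTG were searched in RefSeq promoter windows of GRCh38.p14, each 300 bases long, from 250 before to 50 after a gene's start. The word reads the same on both strands. It was in 7.26% of all 35116 windows, and 8.77% of 27305 genes had it in at least 1 window. Of the 8 members with a window, MXD4, MNT and MLX had it, while MAX, MXD1, MXD3, MXI1 and MLXIP did not. These 26-base stretches are shown 5′ to 3′ on the gene's strand for the measured members that hold the word and for some of the target genes called lower, with the word in capitals, to show what the shared binding site looks like and how its flanks vary.
MNT, chr17:2401238-2401263, minus strand: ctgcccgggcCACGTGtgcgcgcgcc
MLX, chr17:42567040-42567065, plus strand: gggcgcgggtCACGTGggcacgccac
LYAR, chr4:4290070-4290095, minus strand: gcggcgagtcCACGTGctccccgcgg
WDR43, chr2:28894660-28894685, plus strand: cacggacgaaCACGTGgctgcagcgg
FBL, chr19:39846358-39846383, minus strand: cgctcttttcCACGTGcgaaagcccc
HK2, chr2:74834966-74834991, plus strand: ttgctgcgccCACGTGggagggagcc
HK2, chr2:74835011-74835036, plus strand: ccggcgagagCACGTGgagagaatcg
ARRDC4, chr15:97960483-97960508, plus strand: acggcctgtgCACGTGcacgccggag

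TERT and PLK1, also called lower, held the word too and are not shown. The same holds for HSPE1 and BHLHE40, which were called higher. HK2 held the word in 2 places, 194 and 149 bases before the start, and MNT and MLX held it 193 and 50 bases before theirs. In the 4 target lists together 32 of 69 genes with a window had the word, or 46.4%, against 8.77% of all genes with a window. Among measured genes 30 of the target genes had the word and 32 did not, against 10.9% with it of the 15384 measured genes. The lists were chosen as known MYC targets, so this excess may follow from that choice and is not a test. By list the word was in 11 of 22 nucleolar genes, 10 of 15 metabolic genes, 6 of 14 cell cycle genes and 5 of 18 translation and chaperone genes. None of 6 genes of the list repressed with MIZ1 had it. The median log2 change of the target genes was -0.19 with the word and -0.23 without it, and over all measured genes -0.03 and -0.05. Within single lists the genes with the word had the lower median in 2 lists and the higher in 2. The medians with and without the word were -0.43 and 0.08 for the cell cycle genes, -0.03 and 0.23 for the metabolic genes, 0.01 and -0.30 for the translation and chaperone genes and -0.43 and -0.49 for the nucleolar genes. These are descriptions of 4 to 11 genes each and were not tested. A match is a stretch of letters and not evidence of binding in these cells.

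By the root mean square difference over the 6 arrays, each gene taken relative to its parental mean, the patterns most like that of MYC were those of ZC3H8 (0.05), BLTP3A (0.06), ACSL5 (0.06), PXYLP1 (0.06) and EHF (0.06). All 5 had log2 changes between -1.39 and -1.32. For MXD1 they were THBD, the thrombin receptor thrombomodulin (0.05), ARG2, the mitochondrial arginase (0.06), ASNS, the asparagine synthetase (0.07), CAPN8, a calpain protease (0.08), and PXK (0.09), with changes between -2.73 and -2.58. With 6 arrays in 2 groups, genes with a like size of change score as alike by this measure, which is a description with no test.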

How the data were processed

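RNA from 3 parental and 3 DTP cultures was measured, 1 array each. The deposited values are log2 probe set summaries, made by the authors, per the labels' processing notes and the study's methods, with RMA, the affy package and quantile normalization (version numbers: not given in the sources used here). No detection call comes with RMA, and quantile normalization hides a change of total mRNA per cell. The labels do not say whether cultures were independent, so each p-value reflects the spread among these 6 arrays, which may be technical, and 3 arrays per group limit the precision.

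Of 54613 probe sets tested, 41091 carried 1 gene symbol in the platform annotation, 1801 several and 11721 none. Each of the 19775 genes was represented by its brightest probe set without the suffix _x_at, or by an _x_at probe set for 419 genes that had no other. DTPs were compared with parental cells with two-sided moderated tests in limma 3.58.1 (R 4.3.3; lmFit, then eBayes, without covariates) and Benjamini-Hochberg adjustment over all genes or all probe sets. As in the study's methods, a call needed a fold over 1.5 besides an adjusted p under 0.05. The fit was tested on simulated data. Promoter windows came from RefSeq, and 62 control probe sets were left out of the tests.

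The members and gene lists were chosen with earlier results of these data known. The text names all members with their probe sets, 4 further network genes, up to 4 called genes of each list with the largest change (for a list without calls, up to 2 genes of smallest p) and the 5 genes most like MYC and like the other member with the largest change. The 18 alternatives covered the pairing, left-out arrays, scaling, filtering, variance models, probe set choice and thresholds.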

Additional observations from a re-analysis of the deposited data

How the results depend on the processing

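No member changed direction under any of 16 alternatives that give a fold. MYC ranged from -1.43 to -1.25 and MXD1 from -2.69 to -2.50 on the log2 scale, and both were called in all 16. MAX was called in 13 (0.34 to 0.74), MXI1 in 12 (-0.67 to -0.47) and MLXIP in 15 (0.53 to 0.80), and where a call was lost the adjusted p still passed. The 2 genes called higher became 1 with array weights, 0 with the mean of all probe sets and 0 with a fold over 2. Leaving out each array gave 1 to 2, with the 1 found without DTP replicate 3. With no fold minimum the 3 genes called lower became 5 and the 5 probe sets called lower became 9, while a fold over 2 left 0 of the 4 probe sets called higher. MNT and MLX missed the adjusted p after centring on ribosomal protein genes (0.061 and 0.143) or spiked-in controls (0.42 and 0.564). MXD3 passed it under some settings, at 0.00366 with ribosomal centring, and was never called. Ribosomal centring adds back the fall of the ribosomal protein genes themselves, as given above. Among the values for single members, 120 kept their direction and call and 8, of MXI1, MAX or MLXIP, lost the call. Of the counts over the gene lists, 340 stayed within 1.5 times and 56 did not.

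The 1597 genes called higher and 1212 lower, 56.9% higher, became 2167 and 840 (72.1%) with ribosomal centring and 2290 and 795 (74.2%) with spike-in centring. They were 4043 and 4754 with no fold minimum and 679 and 431 with a fold over 2. With the replicate number as a block the counts of members were 2 higher and 3 lower and MYC stayed at -1.40. Same-numbered arrays correlated in their deviations at -0.12, 0.02 and -0.06. With 3 arrays per group these values cannot decide whether same-numbered cultures were handled together, and the labels give only the number. The block changed no call of a member.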
